A study of Homo sapiens with 24 samples.

Results

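The BMP pathway and the ID proteins were followed through 10 genes that carry the signal from ligand to target. BMP2, BMP4 and BMP7 are secreted ligands, BMPR1A is a type I receptor, BMPR2 is the type II receptor, SMAD6 is an intracellular inhibitor, GREM1 is a secreted antagonist that binds BMP ligands, and ID1, ID2 and ID3 are target genes. The members were chosen by name and not by a cutoff on a measured value, but with earlier results of these data known. Their transcript counts were summed for each gene, and the members are 10 of 33127 genes in the table. Expression was measured by RNA-seq of A549 cells, an established line derived from a human lung adenocarcinoma. Cells received 100 nM dexamethasone (dex), a synthetic glucocorticoid that activates the glucocorticoid receptor, dissolved in ethanol (EtOH), or EtOH alone at 0.02% by volume, for 1, 3, 5, 7, 9 or 11 h. Each of the 12 combinations of treatment and time has 2 libraries, which makes 24. All cells are of the 1 line, the EtOH cells carry no other treatment, and nothing in the labels says that the 2 libraries came from separate cultures, so the p-values measure the spread between these libraries only.

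BMP ligands bind a pair of serine/threonine kinase receptors, a type II receptor phosphorylates a type I receptor, and the type I receptor phosphorylates SMAD1, SMAD5 and SMAD9, which enter the nucleus with SMAD4. The ID genes are the best known direct targets of these SMADs. ID proteins carry a helix-loop-helix domain without a DNA-binding region, pair with E proteins such as TCF3, TCF4 and TCF12, and keep them from binding E-boxes. In the lung, BMP signalling is known for its part in airway and alveolar epithelial development, and ID proteins for holding cells in a proliferating, undifferentiated state.

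The dex libraries held 6708864 to 13748598 counts and the EtOH libraries 7813353 to 13619043. All 7 genes taken as known glucocorticoid targets were called higher with dex at every time from 3 to 11 h. FKBP5, a co-chaperone of the receptor, rose 10.4-fold at 3 h. The 5 epithelial markers (KRT8, KRT18, KRT19, KRT7 and CDH1) summed to between 4139 and 6687 CPM (counts relative to library size after TMM scaling) with EtOH and between 4868 and 13154 CPM with dex. The 4 immune markers summed to 0.78 to 3.84 CPM over all libraries, the 5 fibroblast markers to 15.4 to 22.9 CPM with EtOH and 7.75 to 27.0 CPM with dex, and CDH5 and VWF, the 2 endothelial markers measured, to at most 1.13 CPM. The part of these shifts in any result given here was not tested. In bulk RNA, fewer cells expressing a gene and less of its RNA per cell cannot be told apart.

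The bases next to the start of transcription are shown for the 4 ID genes (ID4 is the fourth gene of the family) because these genes moved in opposite directions with dex. Sequences are from RefSeq on GRCh38.p14, which held a promoter for 8 of the 10 members. Each line gives bases -40 to -11 before the RefSeq start, 5′ to 3′, with matches to TATAA, the core of a TATA box, in capitals.
ID1: tggcgtgtTTATAAaagacaagctgtggct
ID2: gcgagtgcggataaaagccgccccgccggg
ID3: caggcaggctcTATAAgtgaccgccgcggc
ID4: gcgcacggctcTATAAatacagctgcgcgg
They lie at chr20:31605249-31605278 on the plus strand, chr2:8682016-8682045 on the plus strand, chr1:23559512-23559541 on the minus strand and chr6:19837330-19837359 on the plus strand. In GENCODE the windows of ID2 and ID3 also lie inside an exon of a transcript that starts further upstream. ID1, ID3 and ID4 held TATAA in this window on either strand, against 5.00% of 35116 promoters, and in ID1 the capitals join 2 overlapping matches on the 2 strands. ID2 did not hold these letters.

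The longer upstream stretches of ID1 and ID4 are given because these genes stand for the opposite directions and the bases shown lie outside the annotated exons of both genes. Capitals mark TATAA and CCAAT (read as ATTGG on the other strand), a box bound by the factor NF-Y. The ID1 stretch is chr20:31605039-31605282 and the ID4 stretch is chr6:19837120-19837369, both on the plus strand.
ID1: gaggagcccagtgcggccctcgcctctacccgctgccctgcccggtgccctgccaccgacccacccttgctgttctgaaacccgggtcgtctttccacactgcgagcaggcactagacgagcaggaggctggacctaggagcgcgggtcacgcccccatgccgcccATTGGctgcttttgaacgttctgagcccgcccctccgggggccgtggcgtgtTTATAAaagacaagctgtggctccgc
ID4: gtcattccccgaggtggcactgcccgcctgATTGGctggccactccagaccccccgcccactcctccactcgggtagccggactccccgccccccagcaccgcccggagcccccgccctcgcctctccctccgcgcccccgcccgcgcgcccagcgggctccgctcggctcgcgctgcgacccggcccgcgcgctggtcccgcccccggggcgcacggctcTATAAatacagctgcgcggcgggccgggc
In the 250 bases before the start, CCAAT on either strand was found at 1 position in ID1 and in ID4, at 3 positions in ID2 and at none in ID3, and 32.0% of all promoters held it. The SMAD-binding GC box GGCGCC was in none of the 4 ID windows (16.4% of promoters held it), 2 copies stood in the GREM1 window that starts at position 32717754 of chromosome 15, and 1 copy stood in the BMPR2 window and in the BMP4 window at chr14:53955051-53955300. The cAMP response half-site TGACG was found in ID3 alone of the 4 ID genes (21.2% of promoters), and the palindromic glucocorticoid response element in none of them (0.327% of promoters). Both strands were searched for every motif, TATAA and CCAAT were chosen after the sequences had been seen, and such matches describe letters in a window, not binding.

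Levels between genes were compared as RPKM, in which counts are divided by transcript length and library size, without the TMM scaling used for CPM. Among the 12 EtOH libraries ID3 had 110 to 175 RPKM, ID2 had 90.8 to 145 RPKM and ID1 had 63.8 to 116 RPKM. The receptors followed with 9.40 to 14.9 RPKM for BMPR2 and 7.47 to 9.34 RPKM for BMPR1A. SMAD6 had 4.80 to 7.65 RPKM and BMP4 4.11 to 7.17 RPKM. GREM1 (0.231 to 0.830 RPKM), BMP2 (0.173 to 0.397 RPKM) and BMP7 (0.0492 to 0.306 RPKM) were close to the limit of detection. In this order the ranges of ID1 and BMPR2, of BMPR2 and BMPR1A, and of BMP4 and GREM1 did not overlap, while every other pair of neighbours overlapped.

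**Figure D1:**
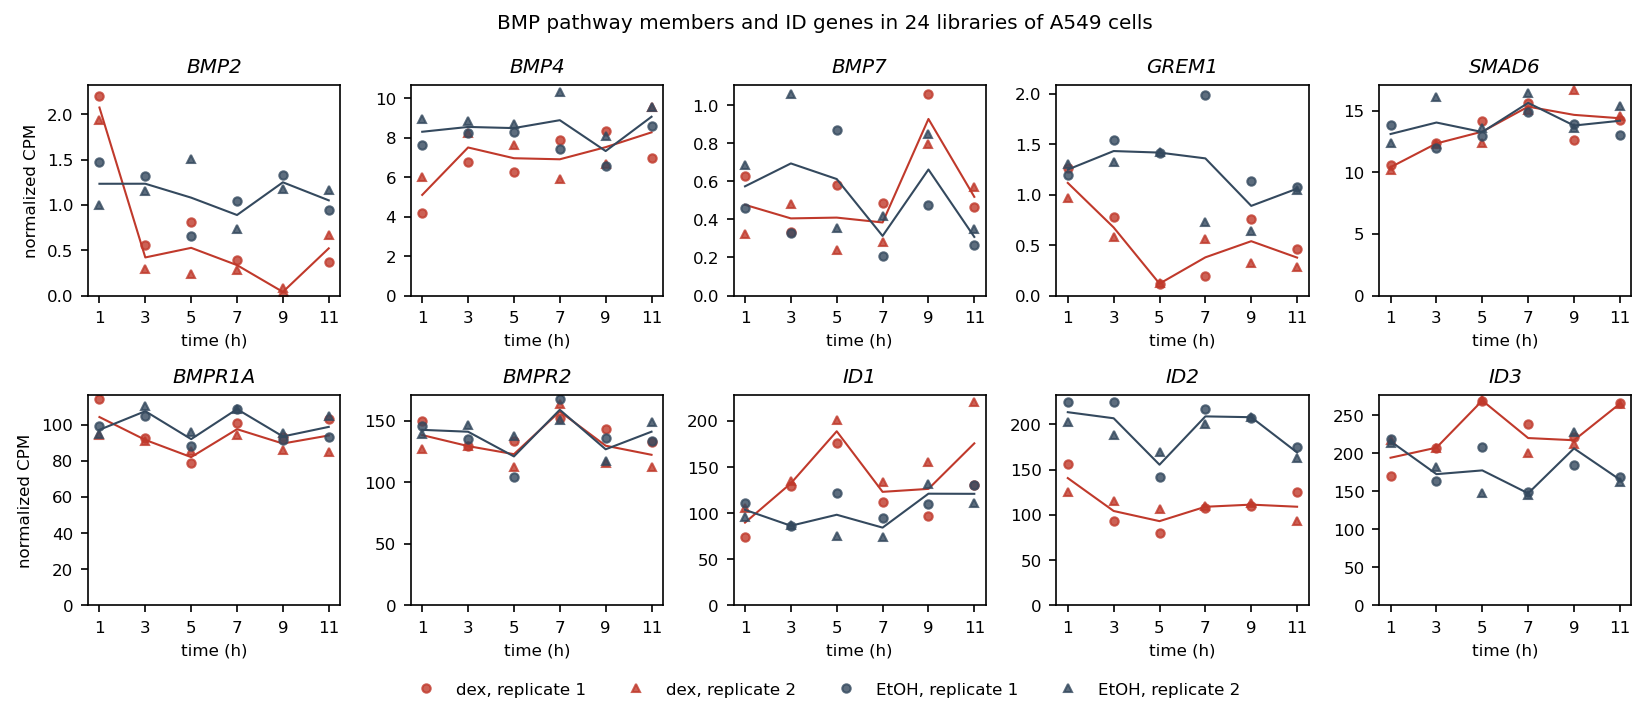
Level of each of the 10 members in CPM (vertical axis, starting at 0) against time in hours, with dex in red and EtOH in blue, circles for replicate 1, triangles for replicate 2, and lines through the mean of 2 libraries. ID2 lies lower with dex at all 6 times, ID1 and ID3 lie higher at 3, 5, 7 and 11 h, and the panels of BMP2, BMP7 and GREM1 run to about 2 CPM or less.

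The question at each time point was which members differ between dex and EtOH. Of the 10 members 9 had enough counts to be tested (BMP7 did not), and a member was called at an adjusted p of at most 0.1 in the quasi-likelihood F-test of edgeR, where the Benjamini-Hochberg procedure ran over 15337 genes. At 1 h, 1 of the 9 was called (ID2, lower) and 0 were higher, where 1.06% of all genes were called, 0.639% higher and 0.417% lower. At 3 h, 2 were called higher (ID1 and ID3) and 1 lower (ID2), where 14.1% of all genes were called, 8.42% higher and 5.65% lower. At 5 h, 2 were higher (ID1 and ID3) and 2 lower (ID2 and GREM1), where 25.0% of all genes were called, 12.4% higher and 12.6% lower. At 7 h the calls were those of 5 h, where 28.2% of all genes were called, 14.7% higher and 13.5% lower. At 9 h, 0 were higher and 2 lower (BMP2 and ID2), where 19.8% of all genes were called, 10.8% higher and 8.96% lower. At 11 h, 1 was higher (ID3) and 1 lower (ID2), where 9.12% of all genes were called, 5.80% higher and 3.33% lower. The calls of members lay in the ID genes and in 2 secreted factors with few counts, and BMPR1A and BMPR2 were called at none of the 6 times. The count at 1 h became 4 without replicate 2 of dex and 0 without replicate 1 of EtOH, and the count at 11 h became 4 without replicate 1 of dex and 0 without either EtOH library. The median log2 fold change of the 9 members lay between -0.19 at 3 h and 0.035 at 9 h.

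ID2 (ENSG00000115738, chr2:8678845-8684453, plus strand, GRCh38) was lower with dex at every time measured, by 1.52-fold at 1 h and by 1.97-fold at 3 h, where the fall was largest. At 1 h the EtOH libraries held 224 and 203 CPM and the dex libraries 156 and 125 CPM. At 3 h they held 225 and 189 CPM with EtOH and 93.4 and 115 CPM with dex. At 5 h they held 142 and 169 CPM with EtOH and 79.9 and 106 CPM with dex. The gap was already open at the first time point, and no dex library reached an EtOH library of its own time. At 7 h the levels were 217 and 200 CPM with EtOH and 108 and 110 CPM with dex. At 9 h they were 207 and 209 CPM with EtOH and 110 and 113 CPM with dex. At 11 h they were 175 and 163 CPM with EtOH and 125 and 93.0 CPM with dex, so both groups stayed apart to the end.

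On the log2 scale ID2 changed by -0.60 ± 0.12 (SE) at 1 h (edgeR adjusted p = 0.0157), by -0.98 ± 0.11 at 3 h (adjusted p = 5.26e-07) and by -0.74 ± 0.12 at 5 h (adjusted p = 2.74e-05), each with n = 2 against 2. At 7 h it changed by -0.93 ± 0.080 (edgeR adjusted p = 2.69e-11), at 9 h by -0.88 ± 0.10 (adjusted p = 7.28e-05) and at 11 h by -0.61 ± 0.15 (adjusted p = 0.0304). A difference in the effect of dex on ID2 between time points was not called (edgeR adjusted p of the treatment by time terms = 0.530). The call at 1 h was lost without replicate 1 of EtOH at 1 h (edgeR adjusted p = 0.361), and that at 11 h without replicate 1 of EtOH (adjusted p = 0.338) or replicate 2 of EtOH (adjusted p = 0.153), with the fold change still below 0 in each case.

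The 35576 counts of ID2 fell on 3 transcripts, with 47.6% on ID2-201, 47.3% on ID2-203 and 5.05% on ID2-202. The share of ID2-201 had a median of 47.5% over the dex libraries and 47.6% over the EtOH libraries. ID2-AS1, a noncoding gene on the opposite strand, shares 38 exon bases with ID2 and had 462 counts in all, and since the use of strand in counting is not stated, reads in the shared bases cannot be assigned.

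ID1 (ENSG00000125968, chr20:31605283-31606515, plus strand) rose with dex between 3 and 7 h, by 1.53-fold at 3 h, 1.93-fold at 5 h and 1.46-fold at 7 h. At 1 h the EtOH libraries held 111 and 96.1 CPM and the dex libraries 74.0 and 106 CPM, which overlap. At 3 h the levels were 85.6 and 87.1 CPM with EtOH and 130 and 135 CPM with dex. At 5 h they were 122 and 75.1 CPM with EtOH and 176 and 201 CPM with dex. At 3 and 5 h both dex libraries lay above both EtOH libraries, although the EtOH libraries at 5 h stood far apart. At 7 h the levels were 94.3 and 74.4 CPM with EtOH and 112 and 134 CPM with dex. At 9 h they were 110 and 132 CPM with EtOH and 97.4 and 155 CPM with dex. At 11 h they were 130.5 and 111 CPM with EtOH and 131 and 220 CPM with dex. The groups overlapped at 9 h, and at 11 h the lower dex library was less than 1 CPM above the higher EtOH library.

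The log2 fold change of ID1 was 0.62 ± 0.10 at 3 h (edgeR adjusted p = 8.52e-05), 0.95 ± 0.26 at 5 h (adjusted p = 0.0864) and 0.55 ± 0.11 at 7 h (adjusted p = 0.000616). It was -0.22 ± 0.14 at 1 h, 0.089 ± 0.21 at 9 h and 0.56 ± 0.20 at 11 h, none of which was called (edgeR adjusted p = 0.888, 0.836 and 0.157). A test of the treatment by time terms did not call ID1 (edgeR adjusted p = 0.339), so the rise at 3 to 7 h was not shown to differ from the other times. In 1 fit over all 24 libraries the calls at 3 h (edgeR adjusted p = 0.255) and 7 h (adjusted p = 0.261) were lost with fold changes close to those above. Without replicate 1 of dex at 11 h, ID1 was called there with a log2 fold change of 0.89, and without replicate 2 of dex at 1 h it was called lower with a log2 fold change of -0.48. The 2 transcripts of ID1 took 50.4% and 49.6% of its 27692 counts.

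ID3 (ENSG00000117318, chr1:23557918-23559794, minus strand), with the highest median RPKM of the 3 with EtOH (134), rose with dex at 3, 5, 7 and 11 h, by 1.20-, 1.52-, 1.50- and 1.62-fold. At 1 h the EtOH libraries held 218 and 213 CPM and the dex libraries 171 and 217 CPM. At 3 h the levels were 163 and 182 CPM with EtOH and 207 CPM in both dex libraries. At 5 h they were 208 and 147 CPM with EtOH and 269 and 270 CPM with dex. Dex libraries thus overlapped the EtOH libraries at 1 h and stood above them at 3 and 5 h. At 7 h the levels were 149.7 and 145 CPM with EtOH and 239 and 201 CPM with dex. At 9 h they were 184 and 228 CPM with EtOH and 221 and 213 CPM with dex. At 11 h they were 168 and 162 CPM with EtOH and 266 and 264 CPM with dex. The separation seen at 7 h was gone at 9 h and was widest at 11 h.

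The log2 fold change of ID3 was 0.27 ± 0.097 at 3 h (edgeR adjusted p = 0.0852), 0.60 ± 0.12 at 5 h (adjusted p = 0.000725), 0.59 ± 0.083 at 7 h (adjusted p = 1.05e-06) and 0.70 ± 0.13 at 11 h (adjusted p = 0.00362). It was -0.16 ± 0.12 at 1 h (edgeR adjusted p = 0.916) and 0.091 ± 0.12 at 9 h (adjusted p = 0.693). Here the effect of dex did differ between time points (edgeR adjusted p of the treatment by time terms = 0.00734), a test that called 15.4% of all genes and 2 of the 9 members, ID3 and BMP2. The call at 3 h was lost under 8 of 11 alternatives. These were DESeq2 (adjusted p = 0.205), 1 edgeR fit over 24 libraries (adjusted p = 0.262), a replicate block (adjusted p = 0.193), the transcript level (adjusted p = 0.192) and a threshold of 0.05. It was also lost without either dex library (edgeR adjusted p = 0.243 and 0.195) and without replicate 1 of EtOH (adjusted p = 0.593). The call at 11 h was lost without replicate 1 of EtOH (edgeR adjusted p = 0.129) or replicate 2 of EtOH (adjusted p = 0.191), and without replicate 2 of EtOH at 9 h ID3 was called higher there with a log2 fold change of 0.25. ID3 has 1 counted transcript.

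**Figure D2:**
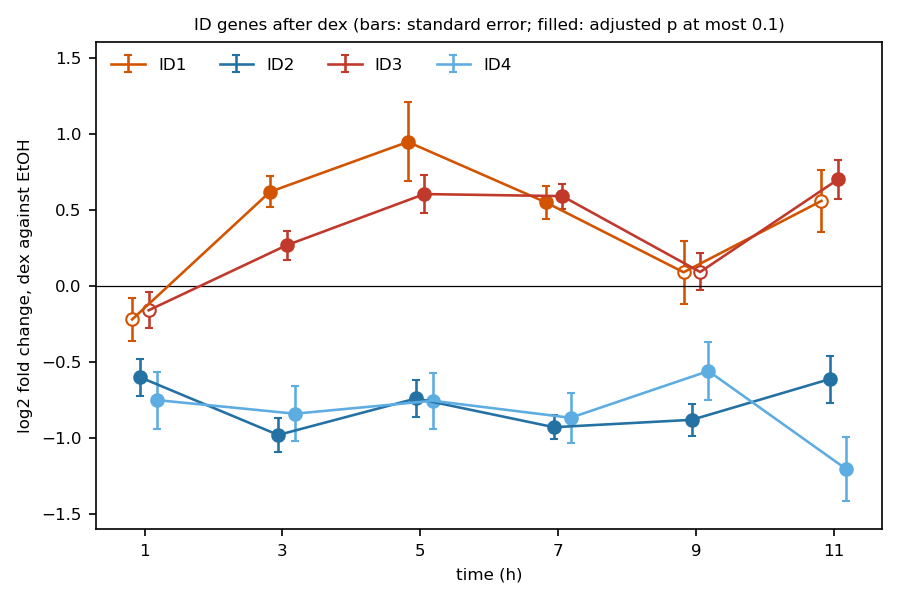
Log2 fold change of the 4 ID genes, dex against EtOH, on the vertical axis against time in hours, with bars for the standard error of 2 against 2 libraries and filled points where the adjusted p is at most 0.1. ID2 and ID4 lie below 0 at all 6 times, while ID1 and ID3 lie near 0 at 1 and 9 h and between 0.27 and 0.95 at the other times.

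ID4 (ENSG00000172201, chromosome 6), the remaining gene of the family and taken from the wider pathway list, was lower with dex at all 6 times like ID2. Its levels were 15.5 to 24.7 CPM in the EtOH libraries and 7.97 to 15.3 CPM in the dex libraries, and the groups did not overlap at any time. The log2 fold change of ID4 was smallest at 9 h (-0.56 ± 0.19, edgeR adjusted p = 0.0728) and largest at 11 h (-1.21 ± 0.21, adjusted p = 0.00295). The terms for treatment by time did not call ID4 (edgeR adjusted p = 0.619).

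Per length, the summed level of the 4 ID genes had similar ranges with the 2 treatments when all times were pooled, while its make-up differed. The sum was 288 to 434 RPKM with EtOH (median 349) and 294 to 445 RPKM with dex (median 344). Within single times the sums differed in both directions. Both dex libraries lay below both EtOH libraries at 1 h (294 and 331 against 422 and 384 RPKM). The same held at 9 h (317 and 357 against 379 and 434 RPKM). Both dex libraries lay above at 5 h (400 and 435 against 363 and 288 RPKM). They also lay above at 11 h (388 and 445 against 357 and 334 RPKM), and the groups overlapped at 3 and 7 h. These sums carry no TMM scaling, unlike the CPM and the tests. The order and overlap of the 2 treatments can depend on that choice, and the sums with TMM scaling were not computed. Shares and ratios within a library do not depend on it. ID2 made up 25.0% to 40.8% of this sum in the 12 EtOH libraries, with a median of 34.6%. In the 10 dex libraries from 3 to 11 h its share was 12.04% to 20.9%, with a median of 19.2%, below every EtOH library. At 1 h the ID2 shares of the 2 dex libraries were 33.1% and 23.6%. ID1 made up 20.8% to 31.7% with EtOH and 25.9% to 41.9% with dex from 3 h on, and ID3 33.7% to 43.7% with EtOH and 43.6% to 51.7% with dex from 3 h on. The ratio of ID2 to ID3 in RPKM was 0.572 to 1.19 with EtOH and 0.242 to 0.464 with dex from 3 h on, which do not overlap. These sums and shares rest on the same reads as the tests above and were not tested.

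**Figure D3:**
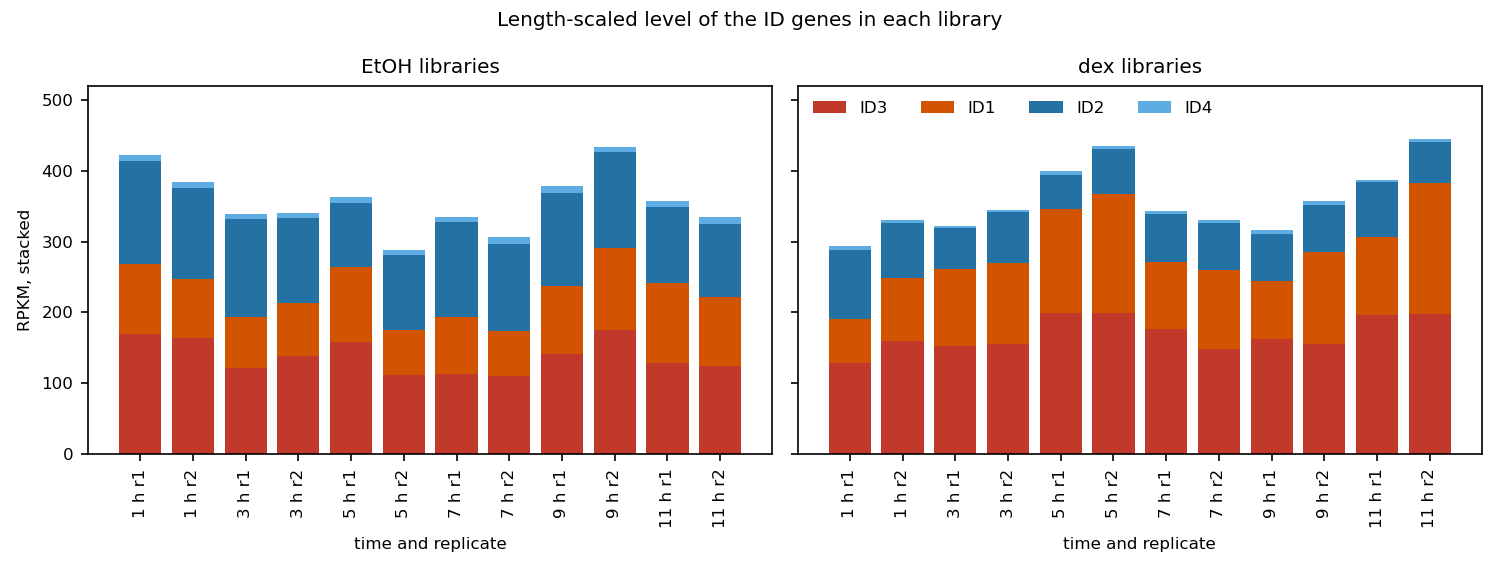
RPKM of ID3, ID1, ID2 and ID4, stacked for each library on the vertical axis and starting at 0, with EtOH libraries on the left and dex libraries on the right in order of time and replicate (r1, r2). The columns reach 288 to 445 RPKM, and the dark blue segment of ID2 is shorter in the dex libraries from 3 h on, at 12.04% to 20.9% of the column against 25.0% to 40.8% with EtOH.

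Among the ligands, BMP4 (ENSG00000125378, chr14:53949736-53958761, minus strand) had most reads and was called at no time. Its level was 6.55 to 10.3 CPM with EtOH and 4.20 to 9.55 CPM with dex. At 1 h it stood at 7.63 and 8.96 CPM with EtOH and at 4.20 and 5.99 CPM with dex, which did not overlap, for a log2 fold change of -0.75 ± 0.25 (edgeR adjusted p = 0.339). That difference was called without replicate 2 of dex (log2 fold change -0.98, edgeR adjusted p = 0.0220). At the other times the log2 fold change of BMP4 ran from -0.33 to 0.035, with standard errors of 0.21 to 0.24. Its 1789 counts were spread over 8 transcripts, and how a read matching several was placed is not stated.

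BMP2 (ENSG00000125845, chr20:6767664-6780280, plus strand), the ligand closest to BMP4 in sequence and function, was scarce, with 204 counts in all libraries. At 1 h it had 16 and 13 counts with EtOH and 21 and 12 with dex. At 9 h it had 14 and 11 counts with EtOH and 0 and 1 with dex. The rate at 9 h was 25.2 times higher with EtOH than with dex, with an exact 95% interval of 4.13 to 1035 that covers counting error only. This was the 1 call of BMP2 (edgeR adjusted p = 0.00537), and it remained when any of the 4 libraries was left out. At 3, 7 and 11 h the dex libraries lay below the EtOH libraries without a call (edgeR adjusted p = 0.102, 0.190 and 0.458), and at 5 h the groups overlapped. At 1 h, by contrast, dex lay above EtOH with a log2 fold change of 0.77 ± 0.42 (edgeR adjusted p = 0.820), and the treatment by time terms were called (edgeR adjusted p = 0.0109). BMP2 also changed over time among the dex libraries (edgeR adjusted p = 0.00325), from 2.21 and 1.94 CPM at 1 h to 0 and 0.0795 CPM at 9 h.

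BMP7 (ENSG00000101144, chr20:57168748-57266629, minus strand) had 123 counts in all and 2 to 12 counts in a library, below the filter for testing. With EtOH it had 65 counts in 12 libraries and with dex 58, a rate 1.06 times higher with EtOH (exact 95% interval 0.731 to 1.53). The interval includes 1, so no difference of BMP7 between treatments was detected.

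Neither receptor was called. BMPR1A (ENSG00000107779, chr10:86756601-86932838, plus strand) had 88.0 to 110.3 CPM with EtOH and 78.8 to 114 CPM with dex. Its log2 fold change ran from -0.23 at 3 h to 0.10 at 1 h, with standard errors of 0.084 to 0.15 and the smallest edgeR adjusted p at 0.181. At 3, 5 and 7 h both dex libraries of BMPR1A lay below both EtOH libraries, by 1.17-fold at 3 h. Separation in either direction is common with 2 against 2 libraries. It was seen for 33, 32 and 34 of 51 tested genes of the wider pathway list below at 3, 5 and 7 h. Its share over all genes was not computed, here or where separation is given for other genes. BMPR2 (ENSG00000204217, chr2:202376936-202567751, plus strand) had 104 to 167 CPM with EtOH and 112 to 163 CPM with dex. Its log2 fold change ran from -0.19 at 11 h to 0.047 at 9 h, with standard errors of 0.081 to 0.14 and no edgeR adjusted p under 0.514. Without replicate 1 of dex at 11 h BMPR2 was called lower there (log2 fold change -0.31, edgeR adjusted p = 0.0158).

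SMAD6 (ENSG00000137834, chr15:66702228-66782848, plus strand), an inhibitory SMAD that is itself a target of BMP signalling, had 11.98 to 16.4 CPM with EtOH and 10.2 to 16.7 CPM with dex. Its log2 fold change ran from -0.33 ± 0.19 at 1 h to 0.13 ± 0.18 at 9 h, and no edgeR adjusted p was under 0.574. SMAD6 was called at none of the 6 times. Of its 3173 counts 76.3% fell on transcript SMAD6-201.

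GREM1 (ENSG00000166923, chr15:32717974-32745107, plus strand), which encodes gremlin, fell at 5 and 7 h. At 5 h it had 13 and 16 counts with EtOH and 1 and 1 with dex, a rate 12.4 times higher with EtOH (exact 95% interval 3.13 to 107, counting error only) and an edgeR adjusted p of 0.000715. At 7 h it had 19 and 7 counts with EtOH and 2 and 4 with dex, a rate 4.02 times higher with EtOH (exact 95% interval 1.62 to 11.9) and an edgeR adjusted p of 0.0384. The EtOH libraries at 7 h differed from each other by more than the 2 dex libraries did. The call at 7 h was lost without replicate 1 of EtOH (edgeR adjusted p = 0.476), without replicate 1 of dex (adjusted p = 0.486) and without replicate 2 of dex (adjusted p = 0.139). At 1 h GREM1 had 13 and 17 counts with EtOH and 12 and 6 with dex, and the groups overlapped in CPM. Over all times it had 149 counts with EtOH and 56 with dex, a rate 2.51 times higher with EtOH (exact 95% interval 1.84 to 3.48, counting error only). An antisense gene, AC090877.2, shares 158 exon bases with GREM1 and had 3 counts in all libraries.

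A difference in the dex effect between 11 h and 5 h was called for no member (0 of 9 by edgeR, 0 at an unadjusted p under 0.05, against 2.90% of all genes called). In the 12 EtOH libraries alone ID2 was the 1 member that changed with time (edgeR adjusted p = 0.0529, against 3.30% of all genes called). Its means with EtOH were 214 ± 15.3 CPM at 1 h (SD, n = 2), 156 ± 19.5 CPM at 5 h and 208 ± 1.10 CPM at 9 h. This call was lost without replicate 1 of EtOH at 7 h and without either EtOH library at 11 h. The count of members changing with time in EtOH became 2 without replicate 1 at 5 h, and 3 without replicate 2 at 5 h or replicate 1 at 9 h. In the 12 dex libraries BMP2, ID3 (edgeR adjusted p = 0.0178) and GREM1 (adjusted p = 0.0953) changed with time, where 23.3% of all genes did. The count of members rose from 3 to 7 when replicate 1 of dex at 11 h was left out.

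ID1 was also set beside all other genes. Over the 24 libraries the log2 CPM of ID1 had a Pearson r of 0.76 with ID3, -0.65 with ID2, -0.78 with BMPR1A and -0.75 with GREM1. Among 10800 genes with a mean of at least 5 CPM, those most like ID1 were PC (pyruvate carboxylase, r = 0.91), TRADD (a TNF receptor adaptor, r = 0.91), CUEDC1 (r = 0.89), CCDC12 (r = 0.87) and LRFN4 (r = 0.87). The most opposed were NDC1 (a nucleoporin, r = -0.93), G3BP1 (a stress granule protein, r = -0.90), FAM102B (r = -0.89), USP12 (a deubiquitinase, r = -0.88) and TMEM30A (a flippase subunit, r = -0.88). These libraries share treatment groups and time points, so the coefficients describe the table.

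The wider pathway was read from a list of 76 other genes, chosen with earlier results of these data known, which limits any comparison with all genes. Of these 76 genes, 75 were in the table and 51 had enough counts to be tested. At 1 h, 0 were called higher and 2 lower (ID4 and HES1), at 3 h 6 and 7, and at 5 h 7 and 9. At 7 h, 7 were higher and 14 lower, at 9 h 8 and 7, and at 11 h 4 and 6. The called share was 3.92% at 1 h against 1.06% of all genes, 25.5% at 3 h against 14.1%, and 31.4% at 5 h against 25.0%. It was 41.2% at 7 h against 28.2% of all genes, 29.4% at 9 h against 19.8%, and 19.6% at 11 h against 9.12%. The median log2 fold change of the 51 lay between -0.097 at 7 h and 0.035 at 9 h, and that of all genes between -0.0059 and 0.014. In all, 15 genes were called in 1 direction at 2 or more consecutive times with the groups apart, 6 higher and 9 lower. The share of all genes that meet this rule was not computed, so the count only says which genes are named below.

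Secreted antagonists and modulators moved in both directions, with 3 of the 11 tested higher and 3 lower at 5 h, where 12.4% of all genes were higher and 12.6% lower. At 1 h 0 were called, and at 3 h 2 were higher and 1 lower. At 7 h 3 were higher and 2 lower, at 9 h 3 and 1, and at 11 h 2 and 1. The shares of all genes at these times are those given for the members. FST (follistatin, which binds activins and BMPs) had 7.27 to 9.58 CPM with EtOH and 0.814 and 0.834 CPM with dex at 5 h. That is a log2 fold change of -3.32 ± 0.35 (edgeR adjusted p = 1.90e-10), and FST was lower at all times from 3 h on. FSTL3, a relative of follistatin, rose 2.10-fold at 5 h, from 36.0 and 29.8 CPM with EtOH to 66.5 and 71.5 CPM with dex, and NBL1, a gremlin relative also called DAN, rose 2.20-fold (13.4 and 12.1 against 28.8 and 27.2 CPM). Both were higher at every time from 3 to 11 h. CHRDL2, a chordin-like antagonist, fell at 5 and 7 h and had 10 and 8 counts with EtOH against 1 and 1 with dex at 7 h (edgeR adjusted p = 0.0145). BMP1, a protease that cleaves chordin and procollagens, rose at 5, 7 and 9 h, by 1.83-fold at 5 h (69.6 and 67.7 against 124 and 127 CPM).

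Of the 4 other ligands tested, 2 were called at 7 h (GDF6 higher and BMP6 lower), where 28.2% of all genes were called. At 3 h 1 was higher, at 9 h 1 was lower, and at 1, 5 and 11 h 0 were called. Of the 7 other receptors and co-receptors tested, 3 were called at 3 h (ACVR1 higher, BMPR1B and RGMB lower), where 14.1% of all genes were called. At 5 h 1 was lower, at 7 h 2 were lower, and at 1, 9 and 11 h 0 were called. The shares of all genes at these other times are those given for the members. Of the 15 SMAD genes and regulators tested, 4 were called at 7 h, or 26.7% against 28.2% of all genes, and 2 or fewer at each other time. GDF6, BMP6, ACVR1 and RGMB were named after their values had been seen. BMPR1B, a type I receptor like BMPR1A, was lower at 3, 5 and 7 h, by 1.39-fold at 7 h (56.0 and 47.5 CPM with EtOH, 31.9 and 43.1 CPM with dex, edgeR adjusted p = 0.00614). At 1 h BMPR1B stood above EtOH without a call (48.0 and 54.7 against 64.3 and 74.1 CPM, edgeR adjusted p = 0.247). SMURF1, a ubiquitin ligase that marks SMADs for degradation, was lower at 5 and 7 h, by 1.24-fold at each. XIAP, a ubiquitin ligase that links BMP receptors to TAK1, was higher at 7 and 9 h, by 1.26- and 1.43-fold.

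Target genes and decoys were split as the ID genes were. BAMBI, a decoy receptor without a kinase domain and a target of BMP signalling, was lower from 3 h on, by 2.30-fold at 5 h (47.7 and 44.0 CPM with EtOH, 20.6 and 19.3 CPM with dex, edgeR adjusted p = 1.16e-09). HES1, a repressor best known as a Notch target, was lowest at 1 h (15.2 and 19.3 CPM with EtOH, 4.62 and 5.18 CPM with dex, a fall of 3.56-fold, edgeR adjusted p = 6.12e-05). It was again lower at 3, 7, 9 and 11 h but was not called at 5 h. MSX2, a homeobox gene, was lower from 5 h on, by 2.13-fold at 11 h. ATOH8, a helix-loop-helix gene induced by BMPs, rose 3.30-fold at 7 h (8.06 and 10.5 against 29.8 and 31.5 CPM), and JUNB, an AP-1 subunit, rose 2.36-fold at 5 h (38.4 and 27.3 against 66.0 and 88.0 CPM). Both were higher at every time from 3 to 11 h. Of the 10 genes tested in this class, 2 were called higher and 4 lower at 11 h, where 5.80% of all genes were higher and 3.33% lower. At 1 h 0 were higher and 2 lower, at 3 h 2 and 4, and at 5 h 3 and 3. At 7 h 2 were higher and 5 lower, and at 9 h 3 and 4. The shares of all genes at these other times are those given for the members.

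Among the helix-loop-helix partners of the ID proteins, 4 genes were tested and TCF4 alone was called. That is 25.0% of the 4 at 5, 7, 9 and 11 h, against 25.0%, 28.2%, 19.8% and 9.12% of all genes. TCF4 was lower from 5 h on, by 2.38-fold at 7 h (25.4 and 25.9 CPM with EtOH, 10.9 and 10.4 CPM with dex, edgeR adjusted p = 2.01e-08). TCF3 (log2 fold changes of -0.086 to 0.15) and TCF12 (-0.14 to 0.059) were called at no time. As for ID3, the effect of dex on TCF4 differed between time points (edgeR adjusted p = 0.000123), and at 1 h its levels were 26.4 and 26.6 CPM with EtOH and 25.0 and 24.6 CPM with dex.

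**Figure D4:**
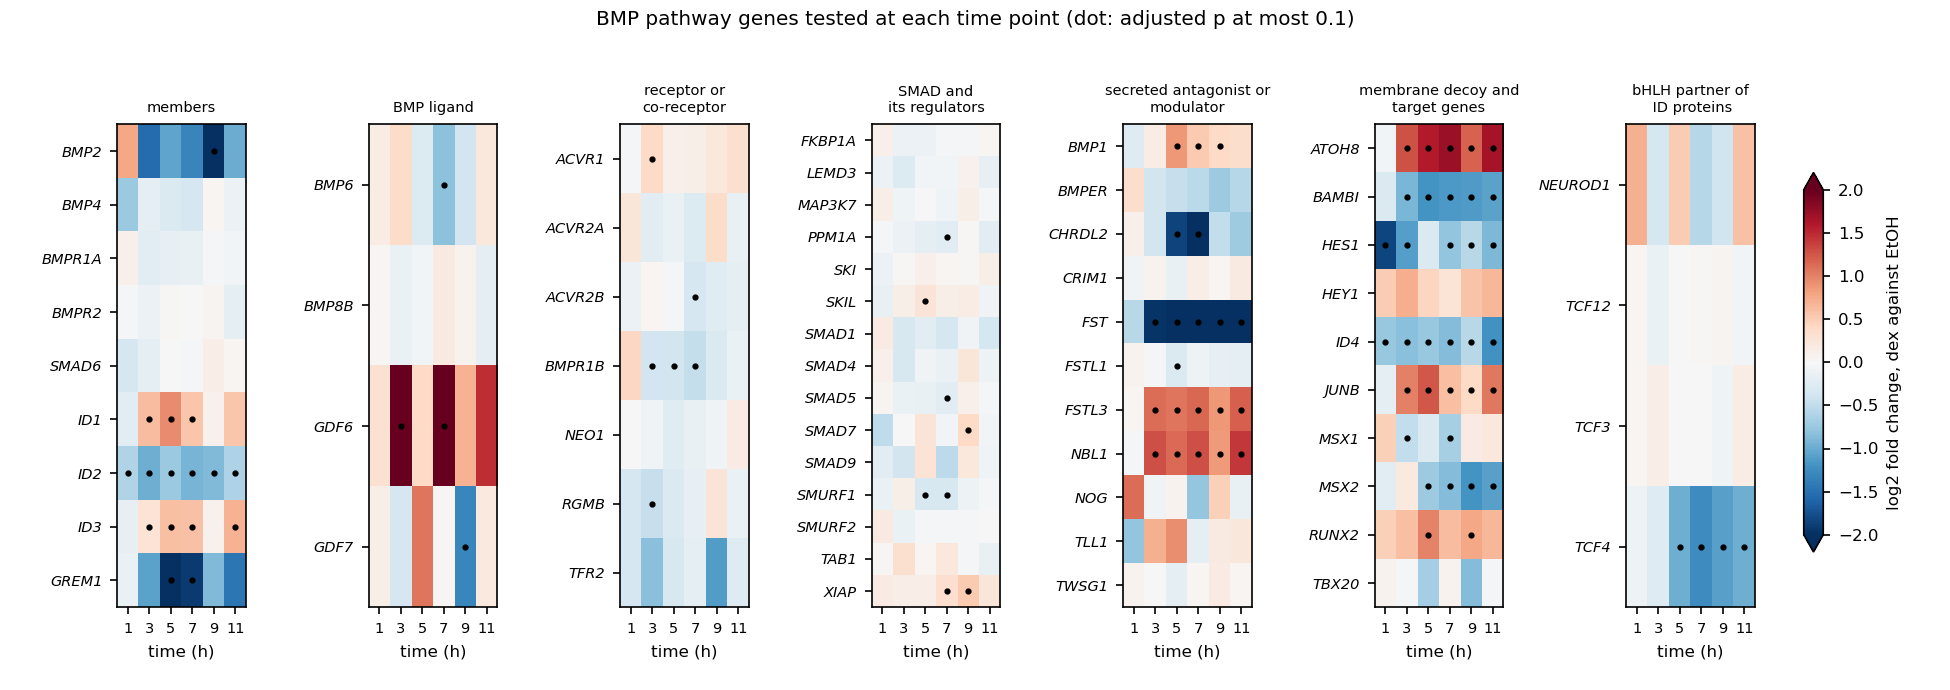
Log2 fold change, dex against EtOH, of the 9 members tested and of the 51 other pathway genes tested, in panels by role, with time in hours on the horizontal axis, blue for lower and red for higher with dex (colors saturate at 2) and a dot where the adjusted p is at most 0.1. Rows with dots at 5 or 6 times are ID2, ID4, FST, FSTL3, NBL1, BAMBI, HES1, ATOH8 and JUNB, and the receptor rows carry at most 3 dots.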

How the data were processed

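RNA-seq libraries of A549 cells were made by the authors from poly-A RNA and sequenced with a strand-specific kit. The deposited values are raw counts per transcript: the authors aligned reads to GENCODE transcripts with Bowtie and counted them with samtools, and the labels name hg19. How reads matching several transcripts were placed is not given in the sources used here. The labels give 2 replicates where the methods state triplicates, and their duration field was used since a protocol text gives 1 h throughout.

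Transcripts were joined to GENCODE release 29 by identifier without version (94.1% of the counts matched a gene) and summed per gene. RPKM is the sum over transcripts of counts divided by length and library size, without TMM scaling. Genes kept by filterByExpr (15337) were tested with edgeR 4.0.16 (R 4.3.3), TMM scaling and the quasi-likelihood F-test, separately at each time, with Benjamini-Hochberg adjustment over all genes and a threshold of 0.1. Tests over time used 1 fit over all libraries involved. Scripts were tested on simulated data.

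The members and lists were chosen with earlier results of these data known. Besides the members, pathway genes called in 1 direction at 2 consecutive times with separate groups were named, and for ID1 the 5 most and 5 least correlated genes. A gene of the pathway list is not reported here and was left out of the list's counts. TCF3 and TCF12 were named after their values were seen. Alternatives were DESeq2 1.42.0, its size factors, no filter, 1 fit over 24 libraries, a replicate block, a threshold of 0.05, single transcripts and leaving out each library.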

Additional observations from a re-analysis of the deposited data

Results flagged for a closer look

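The effect of dex differed between the 6 time points for 2 of the 9 members tested and 9 of the 15 named pathway genes. The test was edgeR's quasi-likelihood test of the treatment by time terms over 24 libraries with Benjamini-Hochberg adjustment, which called 15.4% of all genes. The 15 genes were named for their calls in these same libraries, so their count cannot be set against that share. Among the members, BMP2 (adjusted p = 0.0109) lay above EtOH at 1 h and below it at 3, 7, 9 and 11 h. ID3 (adjusted p = 0.00734) lay near EtOH at 1 and 9 h and above it at the other times. For FST (adjusted p = 5.09e-06), TCF4 (adjusted p = 0.000123) and BAMBI (adjusted p = 0.0111) no fall was called at 1 h and one was called at 5 to 11 h, with log2 fold changes in FST from -0.56 at 1 h to -3.32 at 5 h. For ATOH8 (adjusted p = 0.00101), NBL1 (adjusted p = 0.00644) and JUNB (adjusted p = 0.00797) no rise was called at 1 h (log2 fold changes of -0.057, -0.029 and -0.18) and one was called from 3 to 11 h. BMP1 (adjusted p = 0.000161) had its largest rise at 5 h, with a log2 fold change of 0.87. HES1 (adjusted p = 0.00377) fell most at 1 h, by 1.83 on the log2 scale, and least at 5 h. BMPR1B (adjusted p = 0.0163) was 1.34-fold above EtOH at 1 h without a call and lower at 3, 5 and 7 h. No member or named gene could be tested for an outlying library, since each group has 2.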

How the results depend on the processing

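Over the fold changes of single members, 561 alternative values kept their side of the threshold, 19 lost a call, 10 gained one and none reversed a called direction. The 561 include values called in neither fit, and some of these changed sign. An example is ID1 at 1 h, with a log2 fold change of -0.22 in the main test and 0.021 without replicate 1 of dex. The losses were those of ID1, ID2, ID3 (8 of them at 3 h) and GREM1 given with these genes, and ID1 at 5 h at a threshold of 0.05. Gains beside those given with the genes were BMP2 at 3 h with the size factors of DESeq2 in edgeR (adjusted p = 0.0994), ID3 at 1 h without replicate 2 of dex (lower, adjusted p = 0.0632) and ID1 at 11 h without a filter (adjusted p = 0.00372). The paper describes the EtOH control as paired, and replicate numbers were the only guide to pairs here. The correlation of the deviations of same-numbered libraries was 0.157 at 1 h, -0.068 at 3 h and 0.036 at 5 h. It was -0.012 at 7 h, 0.111 at 9 h and -0.026 at 11 h. Such a correlation, 1 per time, cannot exclude pairing. The main tests used no pairing, and the replicate block is the alternative that joins same-numbered libraries. With a replicate block, 2 members in place of 1 and 7 other pathway genes in place of 2 were called at 1 h, and 3 members in place of 2 at 11 h. Calls over all 15337 genes at 1 h rose with the block too, from 162 to 583. The members gained under the block were BMP4 at 1 h (log2 fold change -0.72, edgeR adjusted p = 0.0588) and ID1 at 11 h (adjusted p = 0.00847), and the member lost was ID3 at 3 h (adjusted p = 0.193). With DESeq2, 1 other pathway gene was called at 1 h, 10 at 5 h, 13 at 7 h and 8 at 9 h. A threshold of 0.05 left 1 other pathway gene at 1 h and 0 members changing over time with EtOH, and without a filter 4 members changed there. In 1 fit over 24 libraries, 1 member was called at 3 h. Leaving out 1 library at a time gave 0 to 4 members called at 1 h, 2 to 3 at 3 h, 4 at 5 h, 3 to 4 at 7 h, 2 to 3 at 9 h and 0 to 4 at 11 h. For other pathway genes it gave 1 to 6 at 1 h, 9 to 13 at 3 h, 12 to 15 at 5 h, 9 to 23 at 7 h, 4 to 22 at 9 h and 7 to 18 at 11 h. For differences between time points it gave 2 to 3 members, for 11 h against 5 h 0, for EtOH over time 0 to 3 and for dex over time 2 to 7. With 1 library left in a group, that library was assumed to vary like the other group. The cause of these changes was not tested. Depth limits BMP2, BMP7 and GREM1, with at most 21 counts in a library, and the common biological coefficient of variation was 6.49% at 7 h and 12.7% at 11 h.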
